A study of Mus musculus with 24 samples.

Results

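The interleukin 1 (IL-1) family cytokine genes of mouse skin were followed across 3 genotypes of the desmoglein 1 (Dsg1) gene cluster. They were picked out by symbol from the read count table, and no measured value decides which gene is a member: Il1a, Il1b, Il18, Il33, Il1rn, Il1f5, Il1f6, Il1f8 and Il1f9, 9 of 54087 genes. The table carries older symbols, so that Il1f5 is Il36rn, Il1f6 is Il36a, Il1f8 is Il36b and Il1f9 is Il36g. RNA-Seq libraries were made from poly(A) RNA of flash-frozen dorsal skin of embryos at E18.5, late in gestation, on a C57BL/6 background and of both sexes. WT embryos carried both intact copies of the tandem Dsg1a, Dsg1b and Dsg1c genes, which encode a desmosomal cadherin of the upper epidermis. HET embryos carried 1 intact copy, and KO embryos had none. The deletion was made by CRISPR/Cas9 and all mutant animals descend from 1 founder. It is present in every cell from conception, so that epidermis, dermis and blood-derived cells of a KO sample all carry it.

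Cytokines of the IL-1 family are mostly made without a secretion signal and are stored inside cells. Keratinocytes hold IL-1α (Il1a), pro-IL-18 (Il18) and the IL-36 agonists (Il1f6, Il1f8 and Il1f9), which act as alarmins when the epidermis is damaged, while IL-1β (Il1b) is chiefly a product of activated myeloid cells and needs cleavage by caspase-1. The IL-1 receptor antagonist (Il1rn) blocks the receptor shared by IL-1α and IL-1β, and the IL-36 receptor antagonist (Il1f5) does the same at the IL-36 receptor. Deficiency of either antagonist causes inflammatory skin disease in humans.

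In GENCODE vM21 (GRCm38), Il1f8, Il1f9, Il1f6, Il1f5 and Il1rn lie together on the plus strand of chromosome 2, with Il1f10 just before Il1rn. Il1a and Il1b are direct neighbours on the minus strand of the same chromosome, Il18 is on chromosome 9 and Il33 on chromosome 19. Promoter sequences from RefSeq (GRCm38.p6) were matched for 8 of the 9 genes, and Il1f6 had no entry. The 250 bases before the start are printed for 4 genes, because Il1a and Il18 were the members lowest in KO relative to WT, Il1rn had the smallest adjusted p, and Il1b is the neighbour of Il1a. They are written 5′ to 3′ on the strand of the gene, from chr2:129309973-129310222 (minus) for Il1a, chr2:129371140-129371389 (minus) for Il1b, chr2:24336610-24336859 (plus) for the first of 3 RefSeq starts of Il1rn, and chr9:50554450-50554699 (plus) for Il18. Capitals mark matches on either strand to the core letters TATAAA of a TATA box, to the AP-1 motif TGANTCA, or to AACNGGTT, a motif of Grainyhead-like factors. The NF-kB motif was searched too and is given by name alone.
Il1a: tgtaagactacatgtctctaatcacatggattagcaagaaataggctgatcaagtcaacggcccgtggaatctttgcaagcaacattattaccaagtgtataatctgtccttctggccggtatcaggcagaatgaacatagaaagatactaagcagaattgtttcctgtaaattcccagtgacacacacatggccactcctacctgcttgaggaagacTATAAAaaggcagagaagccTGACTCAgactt
Il1b: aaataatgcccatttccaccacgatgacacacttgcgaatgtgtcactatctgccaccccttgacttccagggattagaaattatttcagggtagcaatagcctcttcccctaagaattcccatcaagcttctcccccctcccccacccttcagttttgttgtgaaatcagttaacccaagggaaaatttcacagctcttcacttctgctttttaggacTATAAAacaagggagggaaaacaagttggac
Il1rn: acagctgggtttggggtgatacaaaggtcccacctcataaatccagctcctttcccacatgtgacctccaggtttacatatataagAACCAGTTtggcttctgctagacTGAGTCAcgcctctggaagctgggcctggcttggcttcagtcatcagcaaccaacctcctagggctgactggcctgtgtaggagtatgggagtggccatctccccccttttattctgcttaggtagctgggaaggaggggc
Il18: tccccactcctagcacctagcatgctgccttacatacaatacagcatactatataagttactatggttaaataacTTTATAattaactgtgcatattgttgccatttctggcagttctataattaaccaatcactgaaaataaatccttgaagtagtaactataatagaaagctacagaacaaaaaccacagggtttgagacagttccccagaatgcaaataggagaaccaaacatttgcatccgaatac
Of the windows of 250 bases before all 32851 RefSeq starts, 12.4% held the TATA letters, 6.75% the AP-1 motif, 3.9% the NF-kB motif and 1.79% the Grainyhead-like motif. Il1a had TATAAA at -32 and TGACTCA at -12, counted from the last base before the start as -1. Il1b, its neighbour, had TATAAA at -31 and no match to the other motifs in this window. Il1rn had TGAGTCA at -141 and AACCAGTT at -164 before its first start. None of the windows of the 8 genes held the NF-kB motif, which says only that these letters are not there. Il18 had the TATA letters only on the opposite strand, at -175. A match is a description of letters and not evidence of binding, and reads counted per gene cannot say which Il1rn start was used.

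The 24 libraries held 8.98 M to 20.96 M counts, and libraries that share a number in their titles were summed to 15 replicates, 5 per genotype, with 15.3 M to 33.7 M counts. The labels do not say that these numbers are separate embryos, so that p-values measure the spread between the 15 sums. Summed Dsg1 reads were 723 to 933 CPM (counts scaled to a common library size with TMM factors) in WT, 371 to 492 in HET and 0.103 to 0.902 in KO. Keratinocyte markers were high in every replicate, with sums of 59143 to 110195 CPM for 10 suprabasal genes, as the skin label implies, but dermal, muscle, mast cell and endothelial genes were also counted. In such bulk samples, fewer cells of a type and less RNA per cell cannot be told apart. WT replicate 2 needs care: of its 2 libraries, 1 had 325 CPM of Y-linked genes and 0.264 CPM of Xist, and the other 0.155 and 567 CPM. They therefore cannot come from 1 embryo, although both had WT levels of Dsg1 (709 and 734 CPM). Il1f6 differed 1.92-fold between these libraries, Il1f8 1.37-fold and Il1f5 1.32-fold, whereas Il1a and Il18 were nearly equal. For the members that differed most from WT, values are also given without this replicate and with its libraries apart.

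Levels of different genes were compared per kilobase of exon (RPKM, CPM divided by the exon length in kilobases). In WT the IL-36 receptor antagonist gene Il1f5 was the highest member at 114 ± 13.5 RPKM (SD, n = 5 for each value here). Il18 followed at 73.7 ± 8.57 RPKM, Il1f8 at 51.9 ± 9.64, Il1f9 at 44.96 ± 13.6 and Il1f6 at 39.7 ± 4.44. Il1rn was at 9.91 ± 1.21 RPKM, Il1a at 6.13 ± 1.84, Il33 at 1.16 ± 0.425 and Il1b at 0.223 ± 0.138. The WT ranges of Il18 and Il1f8, of Il1f8 and Il1f9, and of Il1f9 and Il1f6 overlapped, so that the order of these neighbours was not resolved, while every other pair of neighbours was separated. In HET the order was the same except that Il1f6 (44.5 RPKM) came before Il1f9 (41.3), with overlapping ranges. In KO the Il18 level of 40.0 ± 23.1 RPKM lay among those of the IL-36 agonists, and Il1a (1.47 ± 1.42) came after Il33 (1.79 ± 0.336), with overlapping ranges.

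KO skin was set against WT skin to see which cytokine transcripts differ when Dsg1 is absent. A member counted as called when its adjusted p did not exceed 0.1 and its log2 fold change was at least 1 in size (edgeR quasi-likelihood test, Benjamini-Hochberg over 17094 genes). None of the 9 members was called, against 0.322% of all genes tested. Without the limit on fold change 1 of 9 passed, Il1rn, against 1.15% of all genes. Before adjustment, p was below 0.05 for 3 members with a higher mean (Il1b, Il1rn and Il33) and 2 with a lower one (Il1a and Il18), against 10.1% and 9.18% of all genes. DESeq2 called Il1a and Il1b, where it called 99 genes higher and 91 lower of the 17094. limma-voom called Il1a and Il18, where it called 27 genes higher and 79 lower. The edgeR test called 23 higher and 32 lower. The median log2 fold change of the 9 was 0.09, beside -0.01 over all genes tested. All 9 passed the filter on low counts.

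Il1a, which encodes the IL-1 receptor agonist stored in keratinocytes, was lower in KO than in WT in all replicates. In WT replicates 1 to 5 it was at 16.2, 13.0, 14.6, 7.39 and 9.42 CPM. In KO it was at 1.02, 7.38, 0.426, 3.70 and 1.95 CPM, and in HET at 11.4, 12.4, 4.60, 14.6 and 4.16 CPM. Every KO replicate was below every WT replicate, but KO replicate 2 (7.38 CPM) almost touched WT replicate 4 (7.39 CPM). It was the single member without overlap, where 1.76% of all genes were lower without overlap. The log2 fold change was -2.06 (SE 0.587, 95% interval -3.32 to -0.80), equal to 0.239 of WT, with an edgeR adjusted p of 0.113 that missed the limit of 0.1. An exact permutation test of the mean log2(CPM + 1) gave a two-sided p of 0.00794, the smallest that arrangements of 5 against 5 allow, unadjusted among 27 such tests of members. The fold change stayed negative under all 30 other fits (-2.81 to -1.79), and the adjusted p ran from 0.00615 to 0.584. It was at or below 0.1 in 9 of them. Among these was the fit of 24 separate libraries (0.00615), which counts 2 libraries of 1 number as independent and so overstates the replicates. That fit is also among the other fits given for each member below. The edgeR adjusted p was 0.226 without WT replicate 2 and 0.0639 with its 2 libraries apart. The paper lists Il1a among genes of raised inflammatory pathways that it checked by qRT-PCR in E18.5 skin. That implies a rise, unlike the lower Il1a here, but the text of the paper gives no Il1a value.

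KO replicates 1 and 3 had the lowest Il1a, with 34 and 10 reads in all, and the KO values spanned a 17.3-fold range against 2.19-fold in WT. The same replicates had the lowest sums of 14 Lce1 genes, which encode late cornified envelope proteins of the outermost epidermis. This sum was 196, 2355, 120, 803 and 519 CPM in KO replicates 1 to 5, and 3144 to 4423 CPM in WT. All 14 Lce1 genes had a lower mean in KO than in WT, and 0 passed an edgeR adjusted p of 0.1. Per 1000 CPM of Lce1 transcripts, Il1a was at 2.20 to 3.81 CPM in WT, 1.80 to 3.88 in HET and 3.13 to 5.22 in KO, so that the genotypes overlapped on this scale. The part of late cornification in the Il1a difference was not tested beyond these values.

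Across the 15 replicates, the 3 genes with a pattern most like that of Il1a were Lce1h, Lce1k and Kctd4, with Pearson's r of 0.982, 0.981 and 0.981 on the log2(CPM + 1) scale (Spearman's rho 0.954, 0.954 and 0.932). Lce1 genes are similar in sequence, so their separate counts may be uncertain, which was not measured. After the mean of each genotype was subtracted, r was 0.954 with Lce1h, 0.960 with Lce1k and 0.966 with Kctd4. These points share libraries and genotypes and are given as a description.

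**Figure D1:**
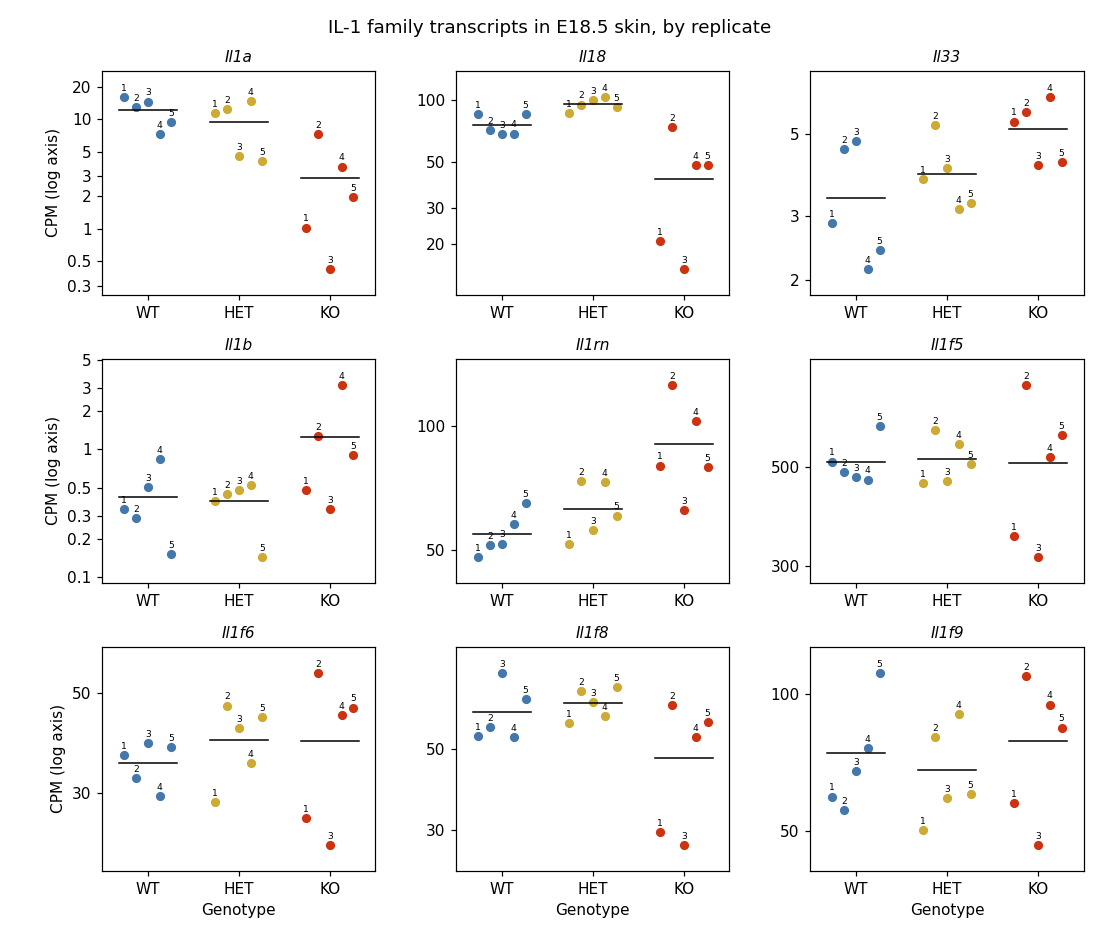
Scaled counts (CPM, log axis) of the 9 IL-1 family genes in WT, HET and KO skin. Each numbered point is 1 replicate and the line is the mean of 5; in KO, replicates 1 and 3 sit lowest for Il1a (1.02 and 0.426 CPM) and Il18 (20.6 and 15.1 CPM), while most KO points for Il1rn lie above WT.

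Il18 encodes the precursor of IL-18, which caspase-1 activates. Its levels in WT replicates 1 to 5 were 85.8, 71.3, 68.6, 68.8 and 85.3 CPM. In KO they were 20.6, 73.9, 15.1, 48.3 and 48.3 CPM. In 4 of 5 KO replicates Il18 was below the whole WT range, and KO replicate 2 lay within it. The log2 fold change was -0.88 (SE 0.315, 95% interval -1.56 to -0.21) with an edgeR adjusted p of 0.165, and the exact permutation p was 0.0317 (two-sided, unadjusted). The fold change was -1.20 (adjusted p = 0.0880) without KO replicate 2. Without WT replicate 2 the edgeR adjusted p was 0.264 and the exact permutation p 0.0635, and with the libraries of that replicate apart they were 0.114 and 0.0108. Over 30 other fits it stayed between -1.20 and -0.67, and the adjusted p ran from 0.0286 to 0.647.

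HET replicates 1 to 5 had 86.2, 95.1, 100.4, 103.9 and 92.5 CPM of Il18. Every HET replicate was above every WT replicate and above every KO replicate. Il18 was the single member whose HET and WT values did not overlap, where 0.140% of all genes were higher without overlap. The closest values were 85.8 CPM in WT and 86.2 CPM in HET, and the exact permutation p was 0.00794. That p was 0.0159 without WT replicate 2 and 0.00866 with its libraries apart. The edgeR test, which shares one spread over the 3 genotypes, gave a log2 fold change of 0.33 (SE 0.312, 95% interval -0.34 to 1.00) and an adjusted p of 1.00. KO was lower than HET by -1.21 on the log2 scale (SE 0.317, adjusted p = 0.147, exact permutation p = 0.00794), without overlap, as were 1.30% of all genes. Under 30 other fits the KO vs HET change ran from -1.53 to -1.001, and 7 of them gave an adjusted p of 0.1 or below (range over all 30, 0.00493 to 0.299).

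Il18 also followed the Lce1 sum, with r = 0.941 over 15 replicates and 0.921 after genotype means were subtracted, but the rank correlation was 0.6. This was not particular to Il1a and Il18. After genotype means were subtracted, r was 0.884 for Il1a and for Il1f5, 0.775 for Il1f6, 0.773 for Il1f8 and 0.771 for Il1rn. For Il1f9 it was 0.679, for Il1b 0.614 and for Il33 0.337. The Lce1 sum was most spread in KO (120 to 2355 CPM, against 3144 to 4423 in WT), so that KO weighs most in these r. WT replicates 1 and 5 had the highest and lowest Lce1 sums in WT (4423 and 3144 CPM). There Il18 was at 85.8 and 85.3 CPM, Il1rn at 48.1 and 65.1 CPM and Il1a at 16.2 and 9.42 CPM. In HET the highest and lowest Lce1 sums (4515 and 2119 CPM) went with 95.1 and 92.5 CPM of Il18. Before genotype means were subtracted, r of the members other than Il1a (0.950) and Il18 ran from -0.351 (Il33) to 0.832 (Il1f8). The proportion of Il18 to Lce1 differed from that of Il1a. Per 1000 CPM of Lce1 transcripts there were 17.9 to 27.1 CPM of Il18 in WT, 21.1 to 43.7 in HET and 31.4 to 126 in KO. KO and WT did not overlap on this scale, and HET overlapped both. The genes most like Il18 were Zfand6 (r = 0.959), Lce6a (0.951) and Aif1l (0.951), with rank correlations of 0.829, 0.682 and 0.682. Without KO replicates 1 and 3, which lie farthest from the median, these r were 0.869, 0.773 and 0.833.

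**Figure D2:**
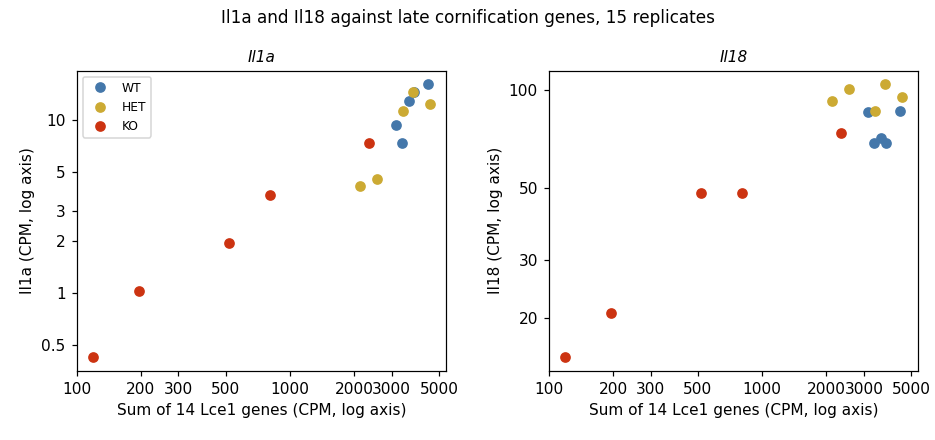
Il1a (left) and Il18 (right) in CPM against the summed CPM of 14 Lce1 genes, both on log axes, 1 point per replicate. Il1a is lower where the Lce1 sum is lower through the KO replicates (120 to 2355 CPM of Lce1), and Il18 changes less steeply with it.

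Il33 encodes IL-33, a nuclear alarmin of epithelial and stromal cells. It was low, at 2.86, 4.55, 4.77, 2.15 and 2.42 CPM in WT replicates 1 to 5 and 5.41, 5.75, 4.13, 6.32 and 4.19 CPM in KO. In HET it was at 3.78, 5.28, 4.05, 3.12 and 3.25 CPM. In 3 of 5 KO replicates it was above all WT replicates, and the other two lay inside the WT range. The log2 fold change KO vs WT was 0.61 (SE 0.227, 95% interval 0.13 to 1.09), with an edgeR adjusted p of 0.173 and an exact permutation p of 0.0476. The direction was the same in 30 other fits (0.48 to 0.77). Without WT replicate 2 the adjusted p was 0.225 and the exact permutation p 0.0317, and with its libraries apart they were 0.156 and 0.0519. The closest patterns were those of Hp, which encodes haptoglobin (r = 0.913), of the EGF family ligand gene Epgn (0.904) and of E2f2 (0.894).

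Il1b, which encodes the inflammasome-processed ligand IL-1β, was near the limit of what this depth shows. WT replicates 1 to 5 had 0.340, 0.290, 0.506, 0.837 and 0.151 CPM. KO replicates had 0.481, 1.25, 0.340, 3.19 and 0.905 CPM, and HET replicates 0.391, 0.446, 0.478, 0.520 and 0.144 CPM. These values rest on 3 to 62 reads, and the 2 libraries of 1 number differed by a median of 1.82-fold, against 1.01 to 1.13-fold for the other members. In 3 of 5 KO replicates Il1b was above all WT replicates. The log2 fold change was 1.46 (SE 0.545, 95% interval 0.30 to 2.62), the edgeR adjusted p 0.175 and the exact permutation p 0.0873. Without KO replicate 4 the fold change was 0.77 (adjusted p = 0.452), where over 29 other fits it ran from 0.43 to 1.84 and the adjusted p from 0.0563 to 0.887. The adjusted p was 0.317 without WT replicate 2 and 0.114 with its libraries apart.

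KO replicate 4 also had the highest sum of neutrophil markers, 108 CPM, where the KO range was 23.3 to 108 CPM, the HET range 16.0 to 53.9 and the WT range 15.4 to 30.6. Among the other KO replicates Il1b did not follow this sum. KO replicates 1 and 3 had the next highest sums (53.9 and 49.96 CPM) but the lowest Il1b in KO (0.481 and 0.340 CPM). KO replicates 2 and 5 had lower sums (30.7 and 23.3 CPM) and more Il1b (1.25 and 0.905 CPM). The neutrophil list includes the alarmin genes S100a8 (32.9 CPM in KO replicate 4) and S100a9 (up to 43.7 CPM in KO). The paper found S100A9 protein in the epidermis of patients with psoriasis and in skin of patients with DSG1 mutations. It also reports more S100A9 protein in immunoblots of E18.5 Dsg1-null mouse skin. The sum may therefore not reflect neutrophils alone. Of the 12 listed neutrophil genes, 11 were in the table and none of these was at 0 in a whole genotype, and 9 of 10 tested had a higher mean in KO, of which 1 passed an edgeR adjusted p of 0.1. The 11 macrophage and monocyte genes summed to 290 to 530 CPM in KO and 308 to 484 in WT. Dendritic cell markers (7 genes, 1 of them at 0 in all WT replicates, 28.3 to 35.7 CPM in KO and 32.6 to 38.9 in WT) and T cell markers (6 genes, 7.72 to 10.7 and 7.20 to 9.97 CPM) also overlapped between genotypes. KO replicate 4 also had 3.76% mitochondrial counts, against 1.53% to 1.84% in the other KO replicates. HET replicate 3 had 3.47% and the highest neutrophil sum in HET (53.9 CPM), with 0.478 CPM of Il1b. The part of leukocyte number or sample quality in the Il1b values was not tested. Il1b was most like Dusp4 (r = 0.928), Osbpl9 (0.909) and Tnip1 (0.906), and these r were 0.669, 0.711 and 0.467 without KO replicates 4 and 2.

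Il1rn, the gene of the antagonist at the IL-1 receptor, was the member with the smallest adjusted p. It was at 48.1, 51.5, 51.9, 57.7 and 65.1 CPM in WT replicates 1 to 5. In KO it was at 80.2, 126.1, 62.6, 103.0 and 79.6 CPM, and in HET at 51.8, 73.6, 55.9, 73.2 and 60.7 CPM. In 4 of 5 KO replicates Il1rn was above the highest WT replicate, and KO replicate 3 fell inside the WT range. It rose by 0.72 on the log2 scale (SE 0.161, 95% interval 0.38 to 1.06), to 1.65 times WT, with an edgeR adjusted p of 0.0804 and an exact permutation p of 0.0159. This passes the limit on adjusted p and stays under the limit on fold change. The direction held in all 30 other fits (0.57 to 0.83), and 18 of them kept an adjusted p of 0.1 or below (range 0.00158 to 0.551). The adjusted p was 0.212 without WT replicate 2 and 0.0330 with its libraries apart. Against HET the difference was 0.52 (SE 0.160, adjusted p = 0.171, exact permutation p = 0.0397).

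Il1rn and Il1a thus differed from WT in opposite directions, although Il1a did not pass the adjusted p. There were 2.98 to 7.82 reads of Il1rn per read of Il1a in WT, 4.56 to 14.6 in HET and 17.1 to 147 in KO. The KO values were 78.5, 17.1, 147, 27.8 and 40.8 in replicates 1 to 5, and none overlapped WT or HET. These ratios were formed with the levels of both genes known and carry no test. Over the 15 replicates, r between Il1a and Il1rn was 0.640 after genotype means were subtracted and -0.327 before. In KO both were highest in replicate 2 and lowest in replicate 3. In WT they did not vary together. There Il1a was highest in replicate 1 (16.2 CPM), where Il1rn was lowest (48.1 CPM). In WT replicates 4 and 5 Il1a was lowest (7.39 and 9.42 CPM) and Il1rn highest (57.7 and 65.1 CPM). Il1rn was most like Map2k4 (r = 0.972), which encodes a stress-activated kinase kinase, Cpm (0.971) and Megf9 (0.958).

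**Figure D3:**
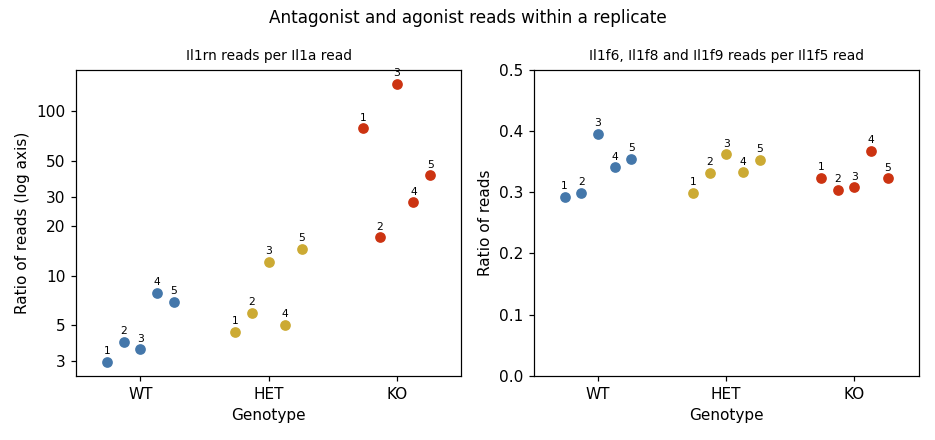
Reads of Il1rn per read of Il1a (left, log axis) and summed reads of Il1f6, Il1f8 and Il1f9 per read of Il1f5 (right, linear axis), 1 numbered point per replicate. The left ratio is 17.1 to 147 in KO, above all WT and HET points, and the right ratio is 0.303 to 0.367 in KO, inside the WT range.

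The IL-36 genes were not called in any comparison. Il1f5, the antagonist gene, was at 514, 488, 475, 469 and 616 CPM in WT replicates 1 to 5 and at 351, 764, 314, 527 and 590.1 CPM in KO. In KO, replicates 1 and 3 lay below and replicate 2 above the whole WT range, so that the means were nearly equal while the spread differed. The log2 fold change was -0.01 (SE 0.191, 95% interval -0.41 to 0.40, edgeR adjusted p = 0.983). HET ranged from 461 to 604 CPM, with a change from WT of 0.02 (95% interval -0.38 to 0.43).

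Among the IL-36 agonists, Il1f6 was at 36.5, 32.4, 38.8, 29.6 and 38.0 CPM in WT replicates 1 to 5 and at 26.4, 55.5, 23.02, 44.7 and 46.5 CPM in KO. Its KO values split to both sides of WT, 2 below and 3 above, and the log2 fold change was 0.16 (95% interval -0.28 to 0.61). Il1f9 was at 59.5, 55.6, 67.7, 76.0 and 112 CPM in WT and at 57.5, 110.1, 46.5, 94.98 and 84.5 CPM in KO. In KO 4 of 5 replicates lay inside the WT range, with a change of 0.09 (95% interval -0.44 to 0.61). Il1f8 was at 54.3, 57.6, 81.2, 54.0 and 68.8 CPM in WT and at 29.6, 66.3, 27.3, 54.0 and 59.5 CPM in KO. Here 3 KO replicates were below all WT replicates, KO replicate 4 only just, and the change was -0.42 (SE 0.215, 95% interval -0.87 to 0.04, edgeR adjusted p = 0.296). Against HET, Il1f8 was lower by -0.50 (SE 0.215, adjusted p = 0.273, exact permutation p = 0.0397).

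Reads of the 3 agonists per read of their antagonist Il1f5 stayed in a narrow band, at 0.292 to 0.395 in WT, 0.299 to 0.362 in HET and 0.303 to 0.367 in KO. The sum of the agonists itself ranged from 96.8 to 232 CPM in KO, so that agonists and antagonist were high or low in the same KO replicates. After genotype means were subtracted, r was 0.871 between Il1f5 and Il1f6, 0.845 between Il1f5 and Il1f8, 0.853 between Il1f5 and Il1f9 and 0.930 between Il1f6 and Il1f8. This was not particular to the IL-36 genes. On the same scale 35 of 36 pairs of members had a positive r, with 0.937 between Il1f5 and Il18 and 0.908 between Il1rn and Il1f9. The exception was Il1f9 with Il33 (-0.050). The share of positive r over all pairs of genes was not computed. The SD in KO exceeded that in WT for 8 of 9 members, so that the KO replicates weigh most in these r. The genes most like Il1f5 were Serpina12 (r = 0.954), Hebp2 (0.943) and Lrrc28 (0.940). Il1f6 was most like Vmp1 (0.859), Pla2g2f (0.855) and Il1f5 (0.850), Il1f8 like Tmprss11f (0.914), Defb1 (0.912) and Pof1b (0.909), and Il1f9 like Elmod1 (0.960), Osbpl1a (0.943) and Ndel1 (0.918). Il1f10, the remaining gene of this cluster and no member of the list, had 1.09 to 1.95 CPM in KO and 1.42 to 1.96 in WT (-0.30, edgeR adjusted p = 0.358).

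**Figure D4:**
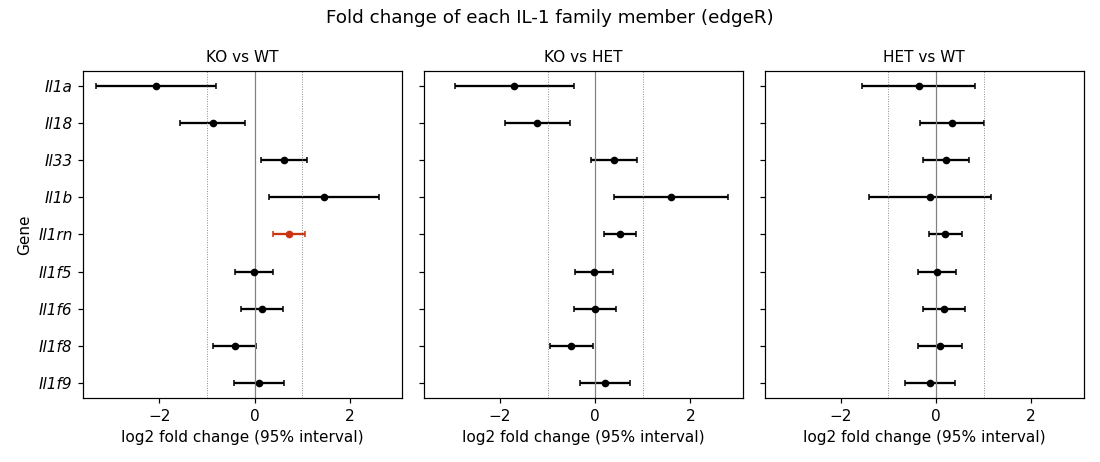
Log2 fold changes of the 9 members with 95% intervals from edgeR for KO vs WT, KO vs HET and HET vs WT; dotted lines mark a change of 1 in either direction. The point of Il1rn in KO vs WT (0.72), drawn in red, is the single one with an adjusted p of 0.1 or below, and in HET vs WT every interval covers 0.

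The members shared one feature across KO replicates. KO replicate 3 was the lowest of the 5 KO replicates for all 9 genes, and KO replicate 2 the highest for 7, all but Il1b and Il33, which were highest in KO replicate 4. KO replicate 1 was among the lowest 2 for 7 members. On the log2(CPM + 1) scale the SD in KO exceeded that in WT for 8 of 9 members, with Il33 as the exception, and the median ratio of SDs was 2.35. Over all genes tested 63.3% had the larger SD in KO, with a median ratio of 1.22. The depths of KO replicates 3, 1 and 2 were 23.3 M, 33.6 M and 28.7 M counts, and depth did not follow this order. KO replicate 2 had the highest suprabasal keratinocyte sum (110195 CPM, against 73389.5 to 81422 in the other KO replicates) and the lowest skeletal muscle sum (8859.8 CPM, against 11772 to 17289), and the part of tissue composition was not tested.

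The HET samples addressed whether a single intact copy is enough to keep these levels. None of the 9 members was called by edgeR, with or without the fold limit, as was true of all genes tested (0%), and 0 members had an edgeR p below 0.05 before adjustment (1.58% of all genes). DESeq2 and limma-voom called 0 members as well, and 0 of all genes tested. The intervals allowed a change of Il1a between -1.55 and 0.82 and of Il1rn between -0.14 and 0.54. In KO vs HET 0 of 9 were called, where 0.181% of all genes were, and 0 passed the adjusted p alone (0.333% of all genes). The edgeR p was below 0.05 before adjustment for 2 with a higher mean (Il1b and Il1rn, against 8.17% of all genes) and 3 with a lower one (Il1a, Il18 and Il1f8, against 7.87%). DESeq2 called Il1b and Il18, where it called 42 genes higher and 84 lower. limma-voom called Il18, where it called 13 genes higher and 47 lower. The edgeR test called 14 higher and 17 lower. KO vs WT and KO vs HET share the KO replicates and are not independent.

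The receptors of the family were measured alongside their ligands. Of 11 receptor and decoy genes 9 could be tested, and 0 passed an adjusted p of 0.1 in KO vs WT (edgeR). At an unadjusted p below 0.05 there was 1 with a higher mean and 0 with a lower one, where 10.1% and 9.18% of all genes were. That gene was Il1rl2, the IL-36 receptor subunit that binds the ligand. It was at 49.4, 62.5, 56.0, 59.2 and 57.2 CPM in WT replicates 1 to 5 and at 72.4, 79.8, 56.8, 68.8 and 71.0 CPM in KO. In 4 of 5 KO replicates Il1rl2 was above all WT replicates, and the log2 fold change was 0.29 (SE 0.098, edgeR adjusted p = 0.144). Il1rap, the accessory chain shared by the IL-1, IL-33 and IL-36 receptors, differed by 0.12 (SE 0.102, adjusted p = 0.517). Il18rap, the accessory chain of the IL-18 receptor, differed by -0.44 (SE 0.436, adjusted p = 0.594). The median over the tested receptors was -0.04.

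Of 23 genes of processing and release, which include inflammasome sensors, caspases, gasdermins and proteases that trim IL-1 family cytokines, 17 were tested and 0 passed in KO vs WT (edgeR), with 1 higher and 2 lower at an unadjusted p below 0.05, beside 10.1% and 9.18% of all genes. Gsdmd, whose cleaved product forms the pores that release IL-1β and IL-18, was at 8.22 to 11.8 CPM in KO and 11.9 to 16.1 in WT. The groups almost touched but did not overlap, where 1.76% of all genes were lower without overlap. The log2 fold change was -0.41 (SE 0.133, edgeR adjusted p = 0.139). Gsdmc, a gasdermin of epithelial cells, was higher in the mean (0.41, SE 0.146, adjusted p = 0.160). Pycard, the adaptor that links sensors to caspase-1, was lower in the mean (-0.28, SE 0.121, adjusted p = 0.233). In 4 of 5 KO replicates Pycard (71.0 to 104.9 CPM) was below the WT range of 109 to 118 CPM, and KO replicate 2 (122 CPM) was above it. The list had a median of 0.03.

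All 24 signal transduction genes, from Myd88 to the NF-kB subunits, were tested. The fold change KO vs WT was above 0 for 21 of 24, where 48.6% of all genes tested were, but 0 passed the adjusted p (edgeR) and 7 had an unadjusted p below 0.05, all with higher means in KO (10.1% of all genes). The median was 0.18. Rel, the NF-kB subunit c-Rel, was at 12.24 to 16.8 CPM in KO and 11.001 to 12.23 in WT, so that the ranges almost touched (0.36, SE 0.103, adjusted p = 0.109). Tollip, an adaptor that dampens IL-1 receptor signalling, differed by 0.27 (SE 0.078, adjusted p = 0.110). Nfkbia, the NF-kB inhibitor that NF-kB itself induces, differed by 0.34 (SE 0.108, adjusted p = 0.129). In KO vs HET 20 of 24 were above 0 (49.3% of all genes), 10 of them at an unadjusted p below 0.05 (8.17% of all genes), and 0 passed the adjusted p.

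**Figure D5:**
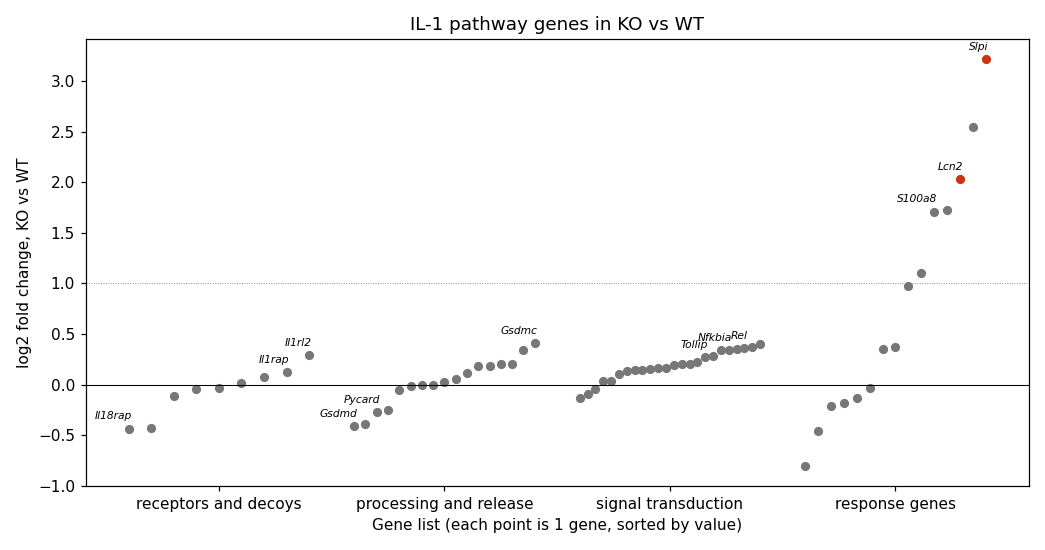
Log2 fold changes KO vs WT of the tested IL-1 pathway genes in 4 lists, 1 point per gene, sorted within a list; red marks the called genes Slpi (3.21) and Lcn2 (2.03). Points of the signal transduction list lie mostly above 0, with a median of 0.18, and those of the receptor list lie on both sides of it.

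A list of 25 genes that IL-1 family cytokines are known to induce in skin was chosen with earlier results of these data known. It holds Slpi, Lcn2, S100a8 and S100a9, which the paper names among genes raised in Dsg1-null skin. The share called is therefore no test of an IL-1 response. Of the 25 genes, 15 were tested and 2 were called in KO vs WT, both higher, where 0.322% of all genes were called. The others fell below the filter on low counts. Of these, Saa1, Saa3, Cxcl1, Cxcl2, Cxcl3, Cxcl5 and Csf3 had a higher mean in KO than in WT. Csf2 and Defb14 had a lower one, and Defb4 had no reads. Saa3 was at 0.0851 to 30.6 CPM in KO and 0.0316 to 0.252 in WT, and Cxcl1 at 0.0851 to 3.19 and 0.0290 to 0.221. Slpi, which encodes a protease inhibitor of epithelia, was at 0 to 0.327 CPM in WT (0 to 9 reads) and 0.553 to 2.67 CPM in KO. All KO replicates were above all WT replicates, with a log2 fold change of 3.21 (SE 0.553, edgeR adjusted p = 0.0231). Slpi stayed called whichever of the 15 replicates was left out (adjusted p 0.00827 to 0.0968). Lcn2, the siderophore-binding lipocalin, was at 0.811 to 1.82 CPM in WT and at 1.43 to 12.03 CPM in KO. KO replicate 5 overlapped WT, and the change was 2.03 (SE 0.501, adjusted p = 0.0978). KO replicate 4 stood apart, with the next KO replicate at 4.45 CPM, and it also had the highest neutrophil marker sum (108 CPM, with S100a8 and S100a9 included). Without it the change was 1.37 (adjusted p = 0.206), and Lcn2, which neutrophils also carry, stayed called in 5 of 15 fits that left out a replicate (adjusted p 0.0359 to 0.219). KO replicate 4 rests on 1 library and had the lowest fibroblast marker sum of the KO replicates (14703 CPM, against 22206 to 29557). The part of neutrophils, or of the quality and composition of this sample, was not tested. S100a8, an antimicrobial alarmin that is also in the neutrophil list, differed by 1.71 (SE 0.450, adjusted p = 0.102). In KO vs HET 1 of the 15 was called, Slpi, where 0.181% of all genes were, and in HET vs WT 0 were. Slpi was lowest in KO replicates 3 and 5, as were Il1rn and Il33, and Lcn2 was lowest in KO replicates 5 and 2.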

How the data were processed

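RNA-Seq gene counts of E18.5 skin were used. The deposited table holds raw counts, whole numbers per gene symbol and library, made by the authors; the submitters' notes name STAR and HTSeq without versions, and the human build hg19. Since the symbols are mouse, the mouse build, annotation and strand setting are not given in the sources used here, and coordinates come from the references named. Antisense and overlapping genes may share reads.

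Libraries with the same title number and genotype were summed to 15 replicates, numbered by ascending title number. Genes kept by filterByExpr (17094, with 99.9% of counts) were tested with the edgeR 4.0.16 quasi-likelihood test in R 4.3.3 (TMM factors, robust fit, 3 genotypes in one model), with Benjamini-Hochberg adjustment. SE is the absolute fold change over the root of F. RPKM used exon-union lengths of GENCODE vM21. Single genes were also compared by exact permutation of mean log2(CPM + 1). Intervals and p-values do not cover uncertainty in read assignment.

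The gene family, pathway lists and markers were chosen with earlier results of these data known; within the family, members were taken by symbol and not by value. Named were the 9 members, called genes and the 3 smallest unadjusted p of each pathway list in KO vs WT, and the 3 genes with the highest Pearson's r with each member among genes with a mean of at least 1 CPM. Alternatives were DESeq2 1.42.0, limma-voom (limma 3.58.1), other scaling, filters, covariates and samples. Scripts were tested on simulated data.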

Additional observations from a re-analysis of the deposited data

Results flagged for a closer look

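In 72 groups of 5 replicates (24 genes and ratios in 3 genotypes), the gap between an extreme replicate and its neighbour exceeded 0.71 of the range of the group in 6. About 1 in 20 groups does so by chance. None of the 9 cytokine genes was among them. The 6 were Il1f10 in KO replicate 2 (1.95 CPM, the others 1.09 to 1.34), Pycard in WT replicate 2 (109 CPM, the others 116 to 118), Nfkbia in KO replicate 4 (75.3 CPM, the others 54.0 to 60.0), Lcn2 in HET replicate 3 (2.76 CPM, the others 1.11 to 1.24), Lcn2 in KO replicate 4 (12.03 CPM, the others 1.43 to 4.45) and S100a8 in WT replicate 4 (7.50 CPM, the others 3.35 to 4.01).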

How the results depend on the processing

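No paired analysis was possible because each title number occurs in 1 genotype only. Causes were not tested. Members called in KO vs WT (0) numbered 1 in series 2 alone (Il1a), 1 with the libraries of number 35 apart (Il1a), 1 without a limit on fold change (Il1rn), 2 with 24 separate libraries or DESeq2 (Il1a and Il1b), 2 with limma-voom or a skeletal muscle covariate (Il1a and Il18) and 0 to 2 when a replicate was left out (2 without WT replicate 4 or KO replicate 2, 1 without KO replicate 5). In KO vs HET (0) they numbered 3 with 24 separate libraries, 2 with DESeq2, 1 with limma-voom or the muscle covariate and 0 to 2 when a replicate was left out. In HET vs WT they stayed at 0. Over all genes, the main fit called 23 higher and 32 lower in KO vs WT. These numbers were 32 and 39 in series 2 alone, 57 and 81 with number 35 apart and 126 and 95 with 24 libraries. With the muscle covariate they were 36 and 85, and without KO replicate 5 they were 113 and 127. The fit of 24 libraries counts 2 libraries of 1 number as independent and so overstates the number of replicates. Of 27 exact permutation tests 10 had p below 0.05, and 6 to 11 with a replicate left out, the fewest without HET replicate 1.

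Changes of sign were seen for Il1b, Il1f5, Il1f6 and Il1f9 only. In the fits, Il1f5 in KO vs WT (-0.01) was 0.067 in series 1 alone, 0.0029 with 24 libraries, 0.013 with number 35 apart, 0.0050 with DESeq2, 0.0050 with RLE factors, 0.00079 without a filter, 0.089 with the length covariate, and -0.20 to 0.12 with a replicate left out. Il1f9 in KO vs WT was -0.020 with the muscle covariate and -0.065 to 0.28 with a replicate left out. In HET vs WT, Il1f5 was -0.0078 in series 2 alone and -0.037 to 0.096 with a replicate left out, Il1f9 was 0.017 in series 1 alone and -0.25 to 0.074, and Il1b was -0.32 to 0.25. In KO vs HET, Il1f5 was 0.065 with the length covariate and -0.22 to 0.10 with a replicate left out. Il1f6 in KO vs HET was 0.031 in series 2 alone, 0.0063 with DESeq2, 0.0058 with RLE factors, 0.0066 without a filter, 0.18 with the length covariate and -0.17 to 0.14 with a replicate left out.

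For the differences of mean log2(CPM + 1), leaving out a replicate gave -0.25 to 0.077 for Il1f5, -0.056 to 0.26 for Il1f6 and -0.077 to 0.23 for Il1f9 in KO vs WT. In HET vs WT it gave -0.0902 to 0.079 for Il1b, -0.034 to 0.089 for Il1f5 and -0.22 to 0.050 for Il1f9, and in KO vs HET -0.27 to 0.056 for Il1f5 and -0.20 to 0.11 for Il1f6. In HET vs WT, Il1f5 was -0.0078 in series 2 alone and Il1b 0.0083 with number 35 apart.

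Depth limits Il1b, which had 3 to 62 reads per replicate. The fits of Slpi and Lcn2 without single replicates were chosen after seeing the data.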
